A study of Mus musculus with 8 samples.

Results

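Tenascin C and related matrix proteins were examined in unsorted suspensions of mammary cells, taken from mice that had borne and nursed young (parous) and from virgin mice of equal age. The 10 listed genes were Tnc, Tnxb, Thbs1, Thbs2, Spp1, Postn, Fn1, Sparc, Vcan and Dpt. A probe set was taken where the array annotation gave a listed gene as its only gene symbol, which left 9 genes with 1 probe set each among 34760 probe sets and 19935 genes. Spp1, which encodes osteopontin, was not analysed here. The members were chosen on earlier results of the same contrast, in which Tnc was higher in parous mice, so their differences are given as a description with no test.

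The series held 8 Affymetrix Mouse Gene 1.0 ST arrays, 4 of parous and 4 of virgin mice. Each array carried RNA from the fourth mammary glands of a pool of 5 mice of the FVB/NHanHsd strain, none with a transgene or drug treatment in the labels. Parous mice were mated when 42 days old, lactated for 21 days and, according to the labels, then went through 28 days of involution, whereas the study's methods give a longer interval after weaning. The virgin mice were of the same age and had not been mated. According to the methods, lymph nodes, adipocytes and red blood cells had been removed and fibroblasts had been reduced by attachment, so that the suspensions were enriched for epithelium but still held stromal cells. No source used here gives the estrous stage behind each pool.

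Matricellular proteins are secreted into the extracellular matrix, where they act on cells through integrins, syndecans and other receptors and modulate adhesion and growth factor signaling rather than forming the structural scaffold. Tenascins, thrombospondins, osteopontin, SPARC and periostin belong to this class. Fibronectin, the proteoglycan versican and dermatopontin are matrix components that bind them or share their partners. In the mammary gland, tenascin C is known for its presence around embryonic ducts, in the remodeling gland and in tumor stroma, and it can be made by stromal fibroblasts as well as by myoepithelial cells.

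The suspensions carried the markers that their label implies. The luminal keratin gene Krt8 had a mean log2 value of 13.11 in parous and 13.28 in virgin mice, and the basal keratin gene Krt14 had 10.81 and 11.56. Fibroblast markers were present as well, with Pdgfra at 10.41 in parous and 9.49 in virgin mice. Array medians lay between 6.293 and 6.427, and the Pearson correlation between arrays over all probe sets lay between 0.976 and 0.993. Virgin replicates 2 and 4 stood apart in proliferation markers: after every gene was set to a mean of 0 across the arrays, 14 such genes averaged 1.21 and 1.69 there and between -0.87 and -0.23 on the other 6 arrays. For members, list medians and related genes listed pool by pool that were lowest in these pools, the value without them is given as well where it moved by more than 1.5 times. For other genes the value without these pools is not given.

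Tnc was the member with the largest difference. Its gene lies on chromosome 4 (GRCm38.p6, 63959785 to 64047015, minus strand). The log2 values were 10.76, 10.59, 10.69 and 10.85 in parous replicates 1 to 4 and 9.69, 9.66, 9.44 and 9.11 in virgin replicates 1 to 4. Every parous pool lay above every virgin pool, and the parous pools were closer to each other than the virgin pools were. The means were 10.72 ± 0.11 (SD, n = 4) and 9.47 ± 0.27 (SD, n = 4), a log2 fold change of 1.25 (SE 0.14, 95% confidence interval 0.94 to 1.56), or 2.38-fold. Without virgin replicates 2 and 4 the log2 fold change was 1.16, so the difference was of similar size without the pools that stood apart in proliferation markers.

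Tnc was the 1 of 9 members that met the criteria of the study's methods in the upward direction, namely more than 1.5-fold, a mean log2 value above 2 and an adjusted p below 0.05. Over the whole array, 0.239% of probe sets and 0.181% of genes met them upward. No member met them downward, where 0.158% of probe sets and 0.221% of genes did. At an unadjusted p under 0.05, 5 members were higher and 3 lower in limma's fit, beside 6.54% and 7.49% of all genes, and the Tnc call was lost when parous replicate 3 was left out. By the methods' t-test, which the study names for its comparisons in general while it names limma for arrays, no member met the criteria after adjustment in either direction. Because the members were picked with this contrast known, nothing is read from these counts.

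**Figure D1:**
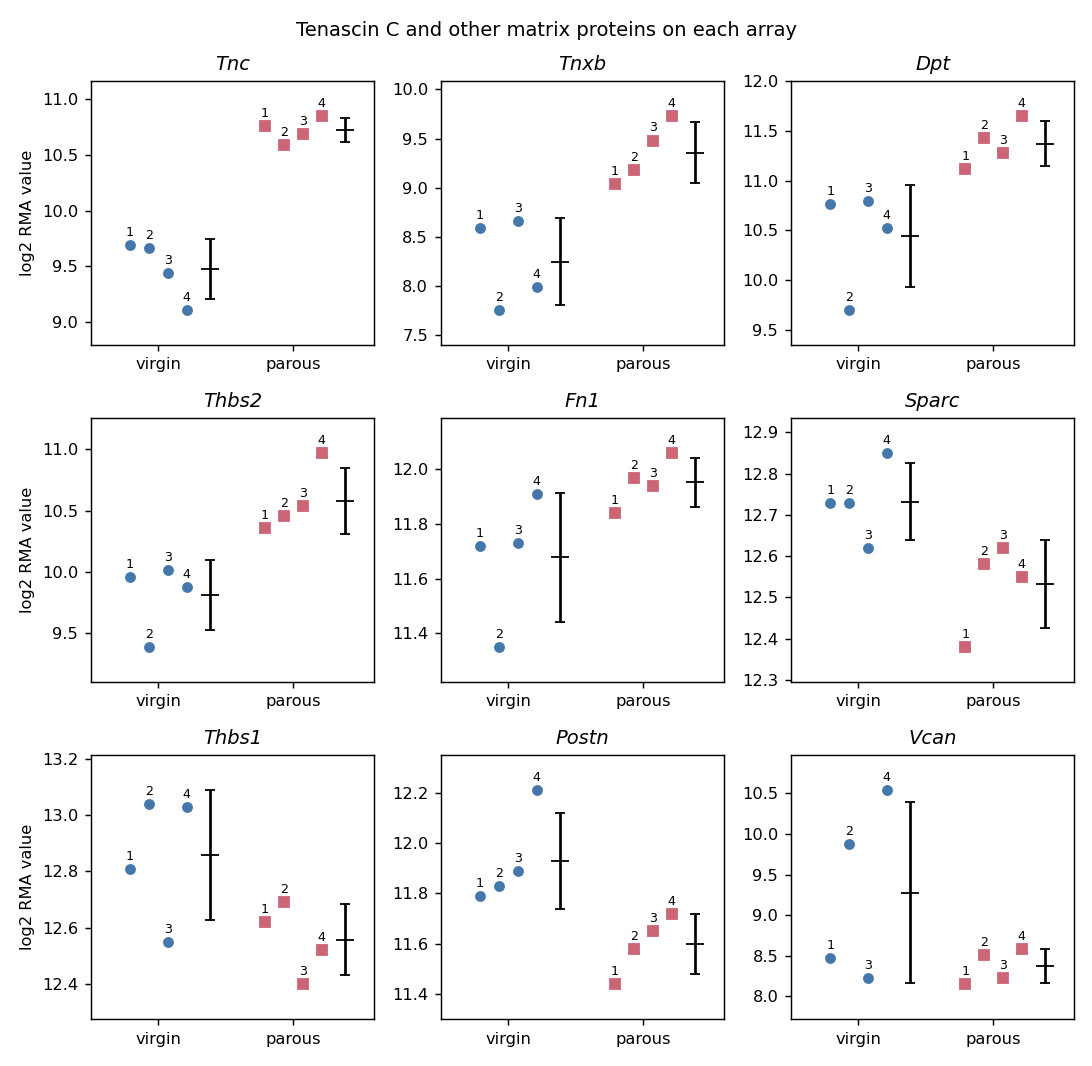
Log2 RMA value of each of the 9 measured members on each array, with virgin pools as circles and parous pools as squares, numbered by replicate; the bar beside each group is the mean ± SD of 4 pools, and each panel has its own vertical range. All 4 parous pools lie above all 4 virgin pools for Tnc, Tnxb, Dpt and Thbs2, and below them for Postn, while in Vcan virgin replicates 2 and 4 lie apart from the other 6 pools.

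The stretches of DNA before the starts of Tnc, Thbs2 and Dpt are shown because these genes were higher in every parous than in every virgin pool. For each gene an annotated start was used that has no part of the same gene before it. They are the 250 bases before the start, 5′ to 3′ on the strand of the gene, from RefSeq on GRCm38.p6. Capitals mark matches, on either strand, to TATAAA or to the SMAD box CAGAC, which reads GTCTG on the other strand.
Tnc, chr4:64047016-64047265, minus strand: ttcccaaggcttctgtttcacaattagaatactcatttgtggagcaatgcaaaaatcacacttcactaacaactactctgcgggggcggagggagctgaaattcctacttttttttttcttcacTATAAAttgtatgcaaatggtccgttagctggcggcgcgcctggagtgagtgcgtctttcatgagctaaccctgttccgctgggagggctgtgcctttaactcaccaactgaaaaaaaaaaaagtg
Thbs2, chr17:14694263-14694512, minus strand: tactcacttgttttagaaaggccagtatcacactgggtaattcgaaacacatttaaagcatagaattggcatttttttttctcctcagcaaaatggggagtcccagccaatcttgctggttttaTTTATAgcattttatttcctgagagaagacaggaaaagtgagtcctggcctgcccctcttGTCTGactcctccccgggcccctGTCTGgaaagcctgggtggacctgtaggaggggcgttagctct
Dpt, chr1:164796413-164796662, plus strand: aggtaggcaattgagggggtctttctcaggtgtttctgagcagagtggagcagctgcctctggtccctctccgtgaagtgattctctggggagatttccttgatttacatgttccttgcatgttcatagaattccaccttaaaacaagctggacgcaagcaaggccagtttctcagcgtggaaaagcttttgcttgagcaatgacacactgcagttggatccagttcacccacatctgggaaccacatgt

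In the Tnc window shown TATAAA lay at bases -126 to -121 from the start. Tnc has another annotated start, whose window (chr4:64046937-64047186) overlaps the one shown. That window held the same TATAAA stretch, which lies at -205 to -200 from this start, and SMAD box letters, as GTCTG, at -70 to -66. In the Thbs2 window the same letters lay at -126 to -121 on the other strand, and SMAD box letters lay at -66 to -62 and -43 to -39. The Dpt window held no match to these or to the other motifs searched, the AP-1 site TGANTCA, which matches on both strands at the same place, the TEAD motif GGAATG and the CArG box, within which TATAAA can lie. Of the 32851 promoter windows of the same length in the table, 12.4% held TATAAA, 42.2% the SMAD box, 6.75% the AP-1 site, 12.6% the TEAD motif and 1.47% the CArG box. Among the members' windows, that of Tnxb held the AP-1 letters TGAGTCA at -55 to -49 and SMAD box letters at -198 to -194 and -178 to -174. Members with lower means in parous pools held such letters too. A Postn window had SMAD box letters at -191 to -187, and another had TATAAA at -26 to -21. The Sparc window had SMAD box letters at -35 to -31, and the Vcan window had no match. These matches are descriptions of letters, and no binding was measured.

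Tnxb encodes tenascin X, a tenascin of loose connective tissue that is needed for normal collagen deposition. Its log2 values were 9.04, 9.18, 9.48 and 9.73 in parous and 8.59, 7.76, 8.66 and 7.99 in virgin replicates 1 to 4. All parous pools were above all virgin pools, and virgin replicates 2 and 4 were the lowest. The means were 9.36 ± 0.31 and 8.25 ± 0.44 (SD, n = 4 each), and the log2 fold change was 1.10 (SE 0.23, 95% confidence interval 0.57 to 1.64). It was 0.73 without virgin replicates 2 and 4.

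The members of the thrombospondin pair, which are trimeric secreted glycoproteins known as inhibitors of angiogenesis, lay on opposite sides of 0. Thbs2 had log2 values of 10.36, 10.46, 10.54 and 10.97 in parous and 9.96, 9.39, 10.02 and 9.88 in virgin replicates 1 to 4, with no overlap. This gave a log2 fold change of 0.77 (SE 0.18, 95% confidence interval 0.36 to 1.17), and 0.59 without virgin replicates 2 and 4. Thbs1, which is also a known activator of latent TGF-beta, had 12.62, 12.69, 12.40 and 12.52 in parous and 12.81, 13.04, 12.55 and 13.03 in virgin replicates 1 to 4. Its groups overlapped, because virgin replicate 3 lay among the parous pools. The log2 fold change of Thbs1 was -0.30 (SE 0.13, 95% confidence interval -0.58 to -0.01), and -0.12 without virgin replicates 2 and 4.

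Dpt encodes dermatopontin, a small protein that binds decorin and fibronectin and is made by fibroblasts. Its log2 values were 11.12, 11.43, 11.28 and 11.65 in parous and 10.76, 9.70, 10.79 and 10.52 in virgin replicates 1 to 4. The groups did not overlap, and virgin replicate 2 lay well below the other virgin pools. Dpt had a log2 fold change of 0.93 (SE 0.24, 95% confidence interval 0.38 to 1.48), and 0.59 without virgin replicates 2 and 4.

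Fn1, which encodes fibronectin, the adhesive glycoprotein of the provisional and interstitial matrix, differed little. Its log2 values were 11.84, 11.97, 11.94 and 12.06 in parous and 11.72, 11.35, 11.73 and 11.91 in virgin replicates 1 to 4. Virgin replicate 4 lay within the parous range and virgin replicate 2 was the lowest pool. Fn1 had a log2 fold change of 0.28 (SE 0.12), or 1.21-fold.

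Postn, which encodes periostin, a ligand of integrins that promotes collagen crosslinking, was lower in every parous pool. Its log2 values were 11.44, 11.58, 11.65 and 11.72 in parous and 11.79, 11.83, 11.89 and 12.21 in virgin replicates 1 to 4. The groups did not overlap, although the highest parous pool lay close to the lowest virgin pool. The log2 fold change was -0.34 (SE 0.11, 95% confidence interval -0.59 to -0.08), a 1.26-fold difference that is under the fold criterion.

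Sparc, which encodes a collagen-binding matricellular protein also known as osteonectin, had log2 values of 12.38, 12.58, 12.62 and 12.55 in parous and 12.73, 12.73, 12.62 and 12.85 in virgin replicates 1 to 4. The groups met at parous replicate 3 and virgin replicate 3. The log2 fold change was -0.20 (SE 0.08, 95% confidence interval -0.39 to -0.01), the smallest in size among the members.

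Vcan, which encodes versican, a large hyaluronan-binding proteoglycan, had the widest spread between virgin pools. Its log2 values were 8.15, 8.51, 8.23 and 8.58 in parous and 8.47, 9.88, 8.22 and 10.54 in virgin replicates 1 to 4. Virgin replicates 2 and 4, the pools with the high proliferation markers, were far above the rest, and virgin replicates 1 and 3 lay among the parous pools. The log2 fold change of -0.91 (SE 0.48, 95% confidence interval -2.01 to 0.19) became 0.02 when these 2 pools were left out. Relative to the mean of the proliferation markers on the same array, the centred value of Vcan lay between -0.24 and 0.40 in parous and between -0.38 and 0.02 in virgin pools, which overlapped. The part of proliferating cells in the Vcan values was not tested.

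**Figure D2:**
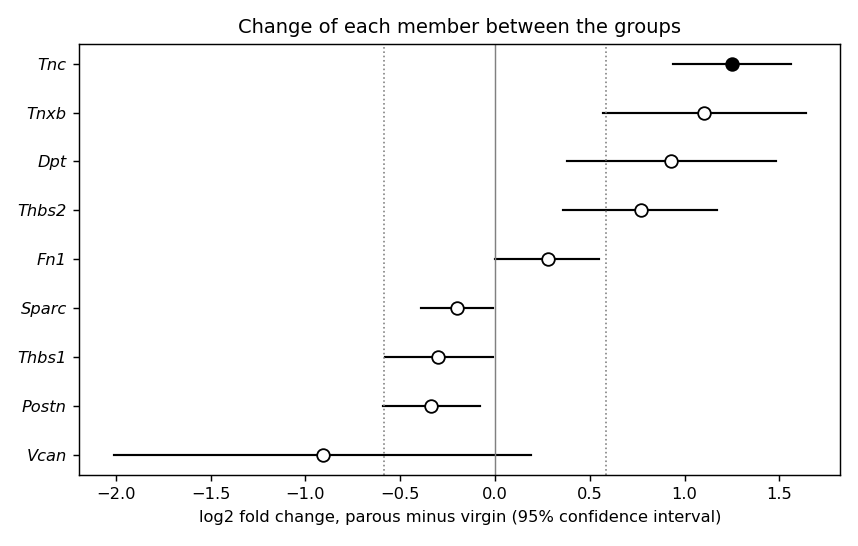
Log2 fold change, parous minus virgin, of each measured member with its 95% confidence interval from limma's fit to 4 pools per group; the filled point met the study's criteria and dotted lines mark a 1.5-fold difference. Tnc stands at 1.25 (0.94 to 1.56), and the interval of Vcan is the widest, from -2.01 to 0.19.

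Among the 9 members, 4 lay higher in all parous pools than in all virgin pools (Tnc, Tnxb, Thbs2 and Dpt), 1 lay lower in all of them (Postn) and 4 overlapped (Thbs1, Fn1, Sparc and Vcan). Over the whole array, 3.54% of probe sets had all parous pools above all virgin pools and 4.06% had them all below. The median log2 fold change of the members was 0.28, beside 0.00 over all genes. All members had means above the median of every array in both groups.

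The marker lists differed between the pools as well, beside the members. Fibroblast markers leaned upward in parous mice: 9 of 10 had a log2 fold change above 0, with a median of 0.76, which was 0.47 without virgin replicates 2 and 4, and none met the criteria. Their mean centred value lay between 0.09 and 0.60 in parous and between -0.80 and 0.00 in virgin pools, with virgin replicate 2 the lowest. The fibroblast transcription factor gene Tcf21 was dim, at a mean of 5.741 in parous and 5.319 in virgin mice. Tnxb, Thbs2 and Dpt were also lowest in virgin replicate 2. In bulk suspensions, fewer cells of a type and less RNA per cell cannot be told apart.

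Pericyte markers were above 0 in 9 of 9 genes, with a median of 0.40 that was 0.06 without virgin replicates 2 and 4, and their centred means lay between -0.05 and 0.42 in parous and between -0.63 and 0.18 in virgin pools. Endothelial markers were above 0 in 8 of 8, with a median of 0.18 that turned to -0.06 without these pools. Macrophage markers had a median of 0.23, or 0.09 without them. Lymphocyte markers, with pools scattered between -1.09 and 1.48, had a median of 0.22 that turned to -0.49, and adipocyte markers, of which 4 of 6 were dimmer than the median of every array, had a median of 0.05 that turned to -0.02.

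Luminal markers were below 0 in 7 of 8 genes, with a median of -0.14, and their centred means did not overlap, at -0.22 to -0.09 in parous and 0.02 to 0.19 in virgin pools. Foxa1 and Krt19 fell most, by 1.18 and 0.47 on the log2 scale. Cd24a, Krt8, Kit, Krt18 and Epcam lay between -0.22 and -0.08, and Elf5 was at 0.35. Proliferation markers differed most, below 0 in 13 of 14, with a median of -1.39. Their centred means lay between -0.87 and -0.43 in parous and between -0.24 and 1.69 in virgin pools, without overlap, and the median was -0.41 without virgin replicates 2 and 4.

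Basal and myoepithelial markers leaned downward in parous mice, but not evenly. They were below 0 in 8 of 10 genes, with a median of -0.26, and their centred mean lay between -0.29 and -0.09 in parous and between 0.02 and 0.30 in virgin pools. Krt14, Trp63, Krt5 and Oxtr had log2 fold changes of -0.75, -0.60, -0.52 and -0.33. The contractile genes Cnn1, Acta2 and Tagln had -0.18, -0.10 and -0.10, and Myh11 and Mylk were above 0, at 0.24 and 0.20. Of all marker genes, 1 met the criteria, the basal keratin gene Krt17, which fell by 1.18 on the log2 scale (adjusted p = 0.017). That call was lost when any of the parous pools or virgin replicate 2 was left out, with an adjusted p between 0.0082 and 0.11 over all 21 alternatives. Relative to the basal markers of the same array, Tnc was 1.58 higher in parous than in virgin pools on the log2 scale, with no overlap. That value is the difference of Tnc itself with the fall of the marker mean added. The part of basal and myoepithelial cells in the Tnc difference was not tested.

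**Figure D3:**
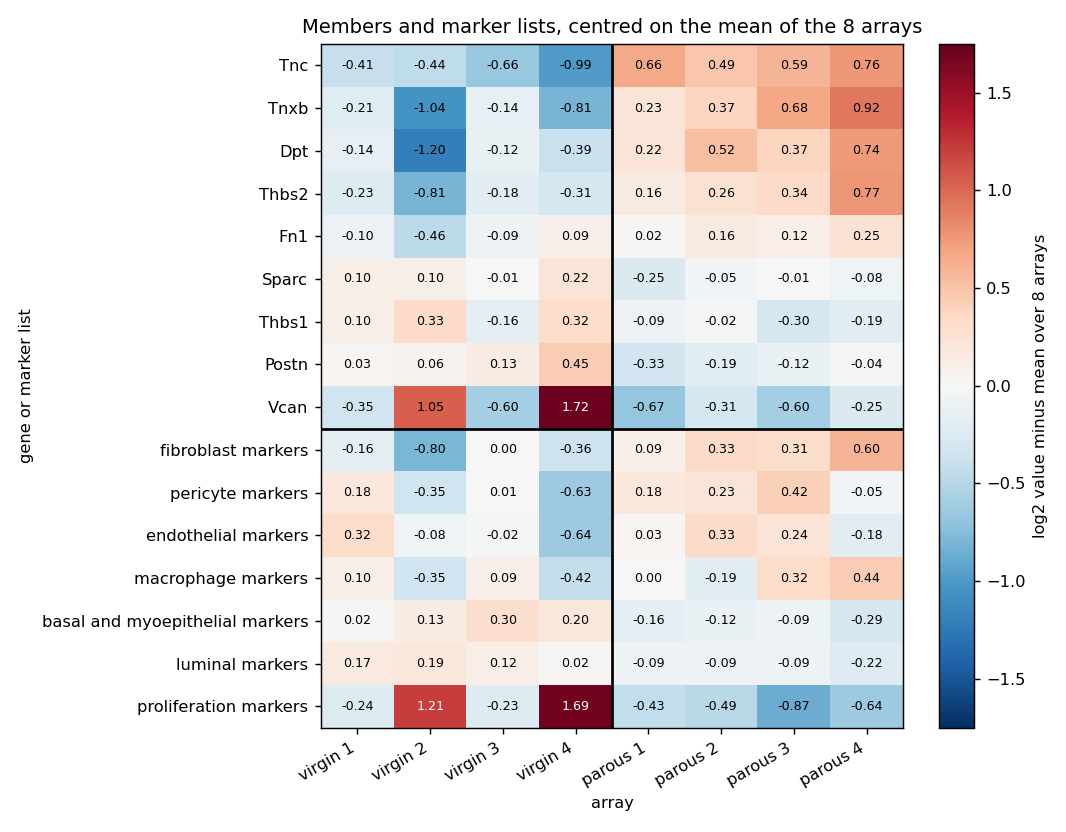
Log2 value minus the mean over the 8 arrays for each member, above the line, and the mean of such values over each marker list, below the line, on each array (columns, virgin left and parous right; red is above the mean and blue below). Tnc, Tnxb, Dpt, Thbs2 and the fibroblast markers are above their means in parous pools, and Vcan is high in virgin replicates 2 and 4, where proliferation markers are 1.21 and 1.69.

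The members were then set against the fibroblast markers of the same array, by subtracting the mean centred value of those 10 markers from the centred value of each gene. The same marker values are subtracted for every member, so every group difference is lowered by the same amount. That shift is therefore no result about a single gene, and only the spread between pools depends on the gene. The difference between the groups that was left for Tnc was 0.59, with parous pools between 0.16 and 0.58 and virgin pools between -0.66 and 0.37. The groups overlapped on this scale, through virgin replicate 2, whose fibroblast markers were the lowest. Without virgin replicates 2 and 4 the difference of Tnc was 0.75. For Tnxb 0.44 was left and for Dpt 0.26, without overlap in either gene. For Thbs2 0.10 was left, and the groups overlapped. Without virgin replicates 2 and 4 the difference of Thbs2 was 0.18, and its groups came close at -0.07 without overlapping.

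The 4 members with lower means in parous pools stood further apart on this scale, which follows from that shared shift. For Postn the difference was -1.0, with parous pools between -0.64 and -0.41 and virgin pools between 0.13 and 0.87. The difference was -0.86 for Sparc, -0.96 for Thbs1 and -1.57 for Vcan, none of which overlapped on this scale, although the groups of Vcan and Thbs1 lay close at -0.63 against -0.61 and -0.17 against -0.16. Much of these sizes came with virgin replicates 2 and 4, without which the difference was -0.66 for Postn, -0.55 for Sparc, -0.53 for Thbs1 and -0.39 for Vcan. Fn1, whose own log2 fold change was above 0, had a difference of -0.39 relative to the markers, or -0.18 without these pools, with overlap. Set against the pericyte markers or the basal markers instead, the groups of Postn, Sparc, Thbs1 and Vcan overlapped. Each gene is centred over the 8 arrays, so these values compare the groups and give no level relative to the markers. The part of fibroblast number in these differences was not tested.

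**Figure D4:**
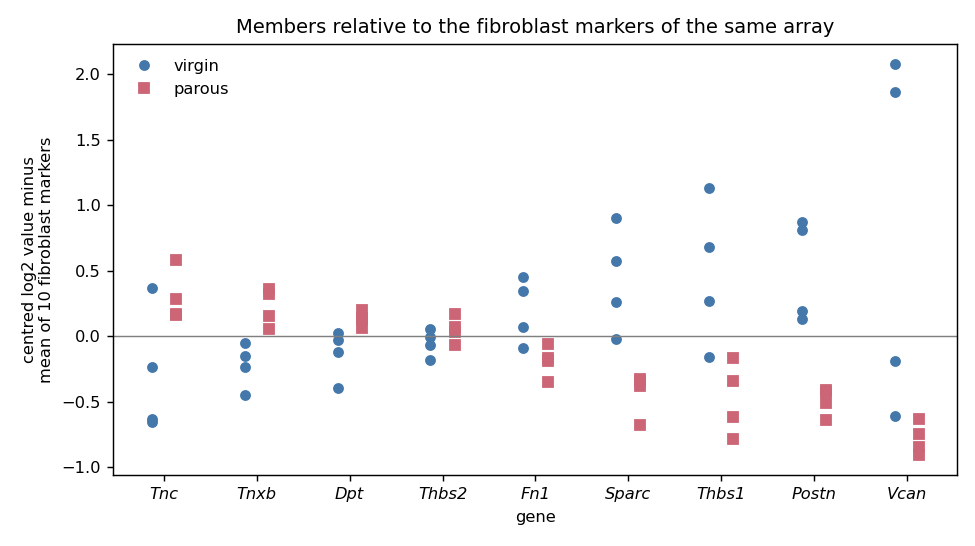
Centred log2 value of each member minus the mean centred value of 10 fibroblast markers on the same array, for virgin (circles) and parous (squares) pools. Parous pools lie above 0 for Tnc (0.16 to 0.58), around 0 for Thbs2 and below 0 for Postn (-0.64 to -0.41).

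The profile of Tnc over the 8 arrays was closest, among 12046 genes with a mean above the median of all probe sets, to that of Srgap3 (Pearson r = 0.989), a Rac GTPase-activating protein gene. Hp, which encodes the hemoglobin-binding acute phase protein haptoglobin, followed at 0.983, the potassium channel gene Kcnj15 at 0.974, an immunoglobulin kappa variable gene at 0.973 and Unc5cl at 0.973. All of these were higher in parous mice, by 0.58, 2.29, 1.90, 2.57 and 0.71 on the log2 scale, so these coefficients include the group difference. After the mean of each group was subtracted, the closest were the ubiquitin ligase gene Mib2 (0.983), the transcription factor gene Tfec (0.966), the chemokine gene Ccl8 (0.964), Cln8 (0.949) and the interferon regulatory factor gene Irf7 (0.948), and none of the first 5 was among them. These coefficients rest on 8 arrays that share a normalization, and the genes were selected from all that were searched.

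Among the members, r with Tnc over the 8 arrays was 0.86 for Tnxb, 0.80 for Thbs2, 0.75 for Dpt, 0.52 for Fn1, -0.64 for Vcan, -0.69 for Thbs1, -0.80 for Sparc and -0.86 for Postn. After subtraction of the group means these became 0.25, -0.06, -0.18, -0.59, -0.49, -0.19, -0.42 and -0.71. Within the groups, Tnxb, Thbs2 and Dpt had coefficients between -0.18 and 0.25 with Tnc.

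The genes around the members were taken from 5 lists of 111 genes, of which 108 were measured. None met the criteria upward and 1, Srf, met them downward in limma's fit, while the methods' t-test gave 0 in each direction. At an unadjusted p under 0.05 in limma's fit, 28 (25.9%) were higher and 11 (10.2%) lower, beside the 6.54% and 7.49% of all genes given above. The lists were chosen with earlier results of these data known, so nothing is read from these shares. The median log2 fold change over the 108 genes was 0.12, or 0.03 without virgin replicates 2 and 4, with 76 above and 32 below 0.

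Matricellular relatives, which include the other tenascins and thrombospondins, the CCN proteins, the SMOCs and the fibulins, had a median of 0.27, or 0.08 without virgin replicates 2 and 4, with 23 of 28 above 0 and none past the criteria. Ccn5, a CCN protein without the C-terminal domain of its relatives, had log2 values of 10.50, 10.39, 10.70 and 10.72 in parous and 9.83, 8.72, 10.36 and 7.84 in virgin replicates 1 to 4. The groups lay close without overlapping and virgin replicates 2 and 4 were again lowest, with a log2 fold change of 1.39 (SE 0.48, adjusted p = 0.33) that was 0.48 without them. Fbln1, which encodes fibulin 1, a partner of fibronectin, had 10.55, 10.73, 10.87 and 11.26 in parous and 9.59, 9.55, 10.15 and 10.06 in virgin replicates 1 to 4. Its groups did not overlap either, and its log2 fold change was 1.01 (SE 0.19, adjusted p = 0.091). Tnr and Tnn, the other tenascin genes, had log2 fold changes of 0.03 and 0.06, and Thbs3 and Thbs4 had 0.62 (adjusted p = 0.23) and 0.67 (adjusted p = 0.48). Thbs3 was lowest in virgin replicates 2 and 4, at 6.78 and 6.77, beside 7.21 and 7.5 in virgin replicates 1 and 3. Thbs4 was lowest in virgin replicate 4, at 7.1, beside 8.76, 8.22 and 8.01 in virgin replicates 1 to 3. Both differences therefore include low values in these pools.

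Receptors of matricellular proteins had a median of 0.08, which turned to -0.02 without virgin replicates 2 and 4, with 16 of 23 above 0 and none past the criteria. Itga8, an integrin alpha chain that binds tenascin C and fibronectin, had 10.95, 10.83, 11.10 and 11.01 in parous and 10.41, 9.66, 10.69 and 9.22 in virgin replicates 1 to 4. Every parous pool lay above every virgin pool, but the virgin spread was wide, and the log2 fold change was 0.98 (SE 0.29, adjusted p = 0.26), or 0.42 without virgin replicates 2 and 4. Lrp1, a clearance receptor for thrombospondins, had a log2 fold change of 0.46 (SE 0.15, adjusted p = 0.31) with overlapping groups. Itga9 and Itgav, other integrin chains that bind tenascin C, had 0.09 (adjusted p = 0.89) and -0.22 (adjusted p = 0.30).

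Fibrillar matrix genes had a median of 0.18, with 12 of 18 above 0 and none past the criteria. Ogn, a small leucine-rich proteoglycan, had 10.39, 10.48, 10.51 and 10.79 in parous and 10.04, 8.97, 10.03 and 9.20 in virgin replicates 1 to 4, a log2 fold change of 0.98 (SE 0.25, adjusted p = 0.19). Lox, the collagen crosslinking enzyme, had 9.29, 9.48, 9.69 and 9.88 in parous and 9.08, 8.39, 8.98 and 8.18 in virgin replicates 1 to 4, a log2 fold change of 0.92 (SE 0.22, adjusted p = 0.17). In both genes the groups did not overlap and virgin replicates 2 and 4 were the lowest pools, without which the log2 fold change was 0.51 for Ogn and 0.55 for Lox. The main collagen genes Col1a1, Col1a2 and Col3a1 had log2 fold changes of -0.21, 0.03 and -0.24, none past the criteria.

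Proteases and inhibitors had a median of 0.20, or 0.11 without virgin replicates 2 and 4, with 13 of 19 above 0 and none past the criteria. Mmp3, stromelysin 1, which cleaves several matrix glycoproteins, had 7.85, 8.68, 8.83 and 9.30 in parous and 7.53, 7.39, 7.82 and 7.78 in virgin replicates 1 to 4, and a log2 fold change of 1.03 (SE 0.27, adjusted p = 0.20). Mmp12, the elastase of macrophages, had 7.10, 7.77, 7.4 and 7.31 in parous and 8.85, 9.53, 8.15 and 9.08 in virgin replicates 1 to 4. Every parous pool of Mmp12 lay below every virgin pool, with a log2 fold change of -1.51 (SE 0.28, 95% confidence interval -2.14 to -0.88, adjusted p = 0.080).

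The TGF-beta axis and transcription factors of matrix genes had a median of 0.04, which turned to -0.01 without virgin replicates 2 and 4, with 12 of 20 above 0. Srf, which encodes serum response factor, a regulator of cytoskeletal and immediate early genes, fell from 10.80, 11.01, 10.75 and 10.78 in virgin to 10.25, 10.30, 10.01 and 9.92 in parous replicates 1 to 4. The groups did not overlap, and the log2 fold change was -0.71 (SE 0.11, 95% confidence interval -0.96 to -0.46, adjusted p = 0.037). This call was lost when any of the 8 pools was left out, with a log2 fold change between -0.77 and -0.65 and an adjusted p between 0.019 and 0.19 over all 21 alternatives. The ligand genes Tgfb1 and Tgfb2 had log2 fold changes of 0.07 and 0.01, and Tgfb3 had 0.65 (adjusted p = 0.20). Tgfb3 was lowest in virgin replicates 2 and 4, at 11.23 and 10.92, beside 11.49 and 11.74 in virgin replicates 1 and 3, so its difference includes low values in these pools.

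**Figure D5:**
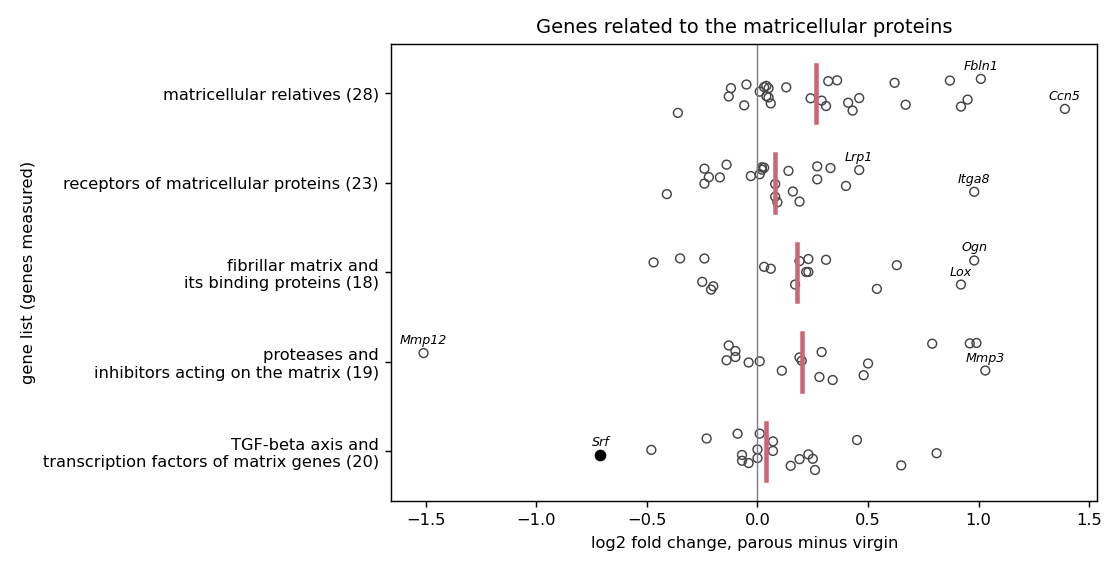
Log2 fold change, parous minus virgin, of each measured gene in 5 lists of related genes, with the median of each list as a vertical bar and the vertical scatter without meaning; the filled point is the gene that met the criteria. Srf, at -0.71, is that gene, and the medians lie between 0.04 and 0.27.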

How the data were processed

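Gene expression was measured in 8 pools of 5 mice each, 4 per group. For the deposited log2 values the authors had run rma() from affy (version not given in the sources used here), which corrects background, normalizes quantiles between arrays and gives 1 log2 value per probe set, so values are comparable between arrays but not between genes. Depth has no counterpart on arrays, and the 4 pools per group limit the precision.

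Of the 34760 probe sets, 21640 named 1 gene, 1321 several and 11799 none here. Symbols were updated through the gene identifier for 21553, through a sequence accession for 3 and kept for 84. A gene with several probe sets was represented by that with the highest mean. Groups were compared in R 4.3.3 with limma 3.58.1 (lmFit and eBayes, no covariate, 2-sided), and p-values were adjusted by Benjamini-Hochberg across the whole table. Criteria were a difference of more than 1.5-fold, a mean log2 value above 2 and an adjusted p below 0.05. Confidence intervals are at 95%. The procedure was tested on simulated data.

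The members, the 5 related lists and the 9 marker lists were chosen with earlier results of these data known. The lists cover matricellular relatives, receptors, fibrillar matrix, proteases and inhibitors, the TGF-beta axis and transcription factors, and markers of fibroblasts, pericytes, endothelium, basal and myoepithelial cells, luminal cells, macrophages, adipocytes, lymphocytes and proliferation. Named were all members, in each related list the genes that met the criteria or else the 2 with the largest change, and the 5 genes most like Tnc before and after subtraction of group means. The other list and marker genes given with values were picked for their roles after values were seen. They were other tenascins, thrombospondins, integrin chains, collagens, TGF-beta ligands, the luminal and basal markers, Pdgfra and Tcf21. The comparison with marker means, with and without virgin replicates 2 and 4, was also chosen after values were seen. Promoter windows were found for 8 of the 10 listed genes. The alternatives were 21 other fits, among them leaving out each pool, the replicate number as a block, median centring and the t-test that the study's methods name for comparisons in general.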

Additional observations from a re-analysis of the deposited data

How the results depend on the processing

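Members kept the sign of their log2 fold change in all but 1 of 189 combinations of member and alternative. The exception was Vcan, at 0.02 without virgin replicates 2 and 4 together. Many of these combinations could not differ. The replicate block, the t-test, eBayes with trend and robust, subsets of probe sets and other criteria leave a member's log2 fold change as it is. Only leaving out pools, other normalization and array weights could move it, so the count is no measure of stability. The count of members that met the criteria upward, 1 in the fit as reported, was 0 with the replicate block, 0 by the methods' t-test and 0 to 1 when each pool was left out, the 0 coming without parous replicate 3. In each of these fits Tnc was the call that was lost, and its log2 fold change ranged from 1.13 to 1.32 over all alternatives. Samples that share a replicate number had correlations of 0.115, 0.183, -0.057 and 0.307 in their deviations from the group means, so the numbers were not taken as pairs and the replicate block is not the main design. A legend of the study describes independent experiments that each held virgin and parous mice, but no source used here ties the replicate numbers to them, so a true pairing was not tested.

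Related genes higher, 0 as reported, numbered 2 with dim probe sets left out (Fbln1 and Smoc1), 1 with only probe sets that name 1 gene (Smoc1) and 0 to 1 when each pool was left out (Smoc1 without virgin replicate 2). Related genes lower, 1 as reported, numbered 0 with the replicate block, median centring, the t-test, a fold change over 2 and virgin replicates 2 and 4 left out, and 2 (Mmp12 and Srf) with dim probe sets left out or only probe sets that name 1 gene. They numbered 0 to 1 when each pool was left out, the 1 being Mmp12 without virgin replicate 3. Over all probe sets, 83 higher and 55 lower became 25 and 24 with the replicate block, 6 and 5 by the t-test, 71 and 29 at a fold change over 2, 48 and 52 without virgin replicates 2 and 4, and 27 to 110 and 15 to 69 when each pool was left out. The call of Krt17 was kept in 13 of 21 alternatives, and it was lost, among others, with the replicate block (adjusted p = 0.098) and by the t-test (adjusted p = 0.11). The causes were not tested.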
